A study of Mus musculus with 34 samples.

Results

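ATF3 binding was compared between C57Bl/6EiJ and Balb/cJ TGEMs, macrophages that enter the peritoneum of male mice after an injection of thioglycollate. The comparison used the 4 ATF3 peak lists, 1 for each strain with vehicle (Veh, PBS) and 1 for each strain after 1 h of Kdo2 lipid A (KLA), out of 34 samples in the series. Also read at these loci were lists of Jun and JunD in both treatments and of Fos and JunB in KLA from both strains, lists of PU.1, CEBPα and PPARγ from C57Bl/6EiJ, and an ATF3 Veh list of male PPARgKO TGEMs on the C57Bl6 background. Each list was made from replicate experiments that had been combined, so there was no spread between replicates, no test could be run, and every interval given here is a 95% Wilson interval that covers counting of loci only. Overlap of 1 bp or more placed peaks of both strains in the same locus, which gave 28051 loci in Veh and 45437 loci in KLA. A locus with a peak in both lists is called shared, and a locus with a peak in 1 list is called strain-only. Reads of the strains were mapped to different genomes, and reads in sequence that Balb/cJ lacks were left out by the authors, so effects of the strain and of its mapping cannot be told apart in these lists.

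ATF3 is a basic leucine zipper transcription factor that binds DNA as a dimer, alone or with members of the AP-1 family such as Jun and JunD. Its dimers recognise the TPA response element (TRE) and the longer cAMP response element (CRE). ATF3 is well known in macrophages as a factor of the response to TLR4, the receptor that KLA activates, where it limits the induction of inflammatory genes. Mouse inbred strains differ at many positions of the genome, so binding in macrophages of different strains shows how a factor occupies different versions of the same regulatory DNA.

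The sequences of the loci that were strain-only in both treatments and ranked highest in them are shown first, 2 for each strain, as the central 200 bp of each locus on the plus strand of GRCm38 from RefSeq. This is the C57BL/6J reference, so the letters at the Balb/cJ-only loci may differ from those of Balb/cJ, which were not compared. Capitals mark matches to the motifs searched, which are listed with the motif results, and a window without a match only lacks these exact letters.
Muc3 locus, C57Bl/6EiJ only, chr5:137152196-137152395: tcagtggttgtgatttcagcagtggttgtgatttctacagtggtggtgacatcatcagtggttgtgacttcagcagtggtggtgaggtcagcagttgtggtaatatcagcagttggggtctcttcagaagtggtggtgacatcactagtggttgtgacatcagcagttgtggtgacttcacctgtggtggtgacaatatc
Slamf9 locus, C57Bl/6EiJ only, chr1:172470081-172470280: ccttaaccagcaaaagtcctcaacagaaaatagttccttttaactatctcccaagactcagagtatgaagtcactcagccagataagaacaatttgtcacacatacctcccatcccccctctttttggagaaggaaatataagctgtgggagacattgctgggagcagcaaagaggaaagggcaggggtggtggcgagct
Cacna1a locus, Balb/cJ only, chr8:84420658-84420857: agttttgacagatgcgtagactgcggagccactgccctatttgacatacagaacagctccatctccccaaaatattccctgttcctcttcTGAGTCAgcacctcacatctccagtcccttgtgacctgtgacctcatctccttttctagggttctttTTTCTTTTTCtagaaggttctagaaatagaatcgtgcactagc
Ndfip2 locus, Balb/cJ only, chr14:105300649-105300848: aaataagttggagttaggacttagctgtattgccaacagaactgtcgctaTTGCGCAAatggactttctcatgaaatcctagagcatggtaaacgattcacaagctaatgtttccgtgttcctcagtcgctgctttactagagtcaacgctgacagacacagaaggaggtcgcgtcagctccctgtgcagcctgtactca
The Cacna1a locus held a TRE, read as TGAGTCA on this strand, and a match to the interferon regulatory factor motif. The Ndfip2 locus held a CEBP motif. The C57Bl/6EiJ-only loci near Muc3 and Slamf9 held none of the 8 motifs, and the Muc3 sequence was built of short repeated units.

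The C57Bl/6EiJ lists held 23160 peaks in Veh and 36745 in KLA, and the Balb/cJ lists held 19506 and 36821. In each C57Bl/6EiJ list 4 peaks lay outside chromosomes 1 to 19, X and Y and were left out. The counts of the peaks summed to 1668345 and 3537782 in C57Bl/6EiJ and to 891930 and 2206533 in Balb/cJ. The median count per peak was 56 and 74 in C57Bl/6EiJ, and 36 and 44 in Balb/cJ. Because these counts were not scaled to library size, peaks were ranked by count within their own list, and a rank is given as a percentile with 100 as the strongest.

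In Veh, 14578 of the 28051 loci were shared (52.0%, 51.4 to 52.6%). A further 8554 loci were found only in C57Bl/6EiJ (30.5%) and 4919 only in Balb/cJ (17.5%). The C57Bl/6EiJ list was the longer one in Veh, by 1.19 times. With both lists set to 19506 peaks by count, which makes the strain-only counts nearly equal by construction, 53.8% of loci were shared and 23.1% were found in each strain alone. In KLA the lists were of nearly the same length, and 28063 of 45437 loci were shared (61.8%, 61.3 to 62.2%). There 8648 loci were found only in C57Bl/6EiJ (19.0%) and 8726 only in Balb/cJ (19.2%), and at 36741 peaks a list the strain-only shares were 19.1% each. How much of the larger C57Bl/6EiJ-only share in Veh belongs to the longer list cannot be told from these counts.

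Strain-only loci were mostly weak. In Veh the median rank of C57Bl/6EiJ-only loci in their list was 26.1, against 65.1 for shared loci. Balb/cJ-only loci had a median rank of 18.2, against 60.9. In KLA these medians were 20.7 against 60.3 in C57Bl/6EiJ and 19.0 against 60.1 in Balb/cJ. Among the weakest 10% of the C57Bl/6EiJ Veh list 76.5% of loci were strain-only, while in the strongest 10% of the Veh lists the shares in C57Bl/6EiJ and Balb/cJ were 2.09% (48 loci) and 0.671% (13 loci). In KLA the shares fell from 66.5% to 1.36% (50 loci) in C57Bl/6EiJ and from 68.2% to 1.06% (39 loci) in Balb/cJ. A strain-only locus is one whose peak passed the cutoff in 1 list and not in the other. How much of the fall with rank comes from that cutoff was not tested.

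**Figure D1:**
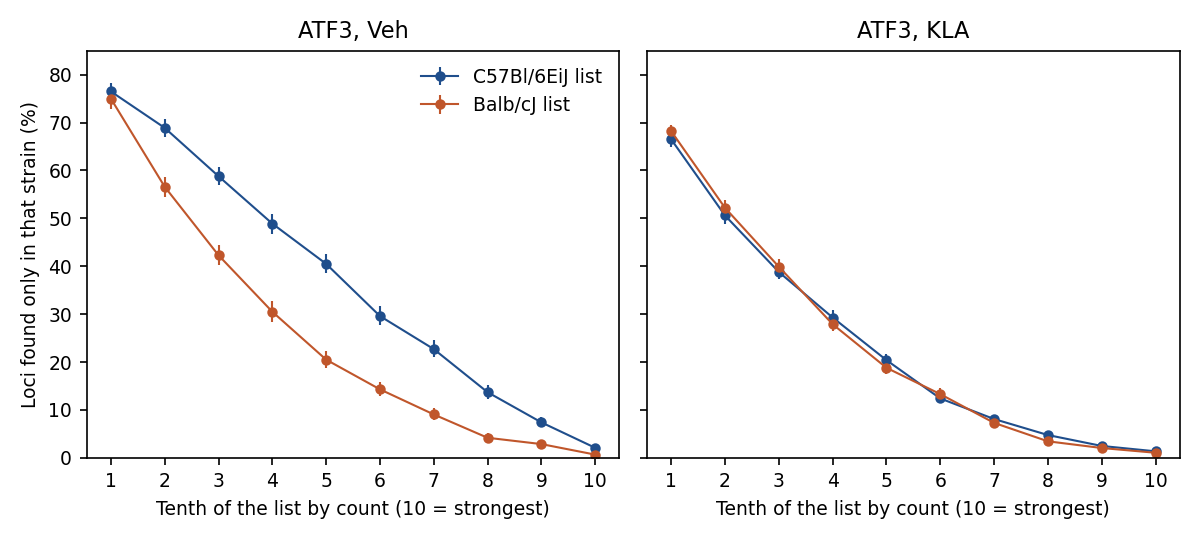
Share of loci found only in that strain, in percent, for each 10% of its ATF3 list by count, with 95% Wilson intervals as bars. The 4 lines fall from between 66.5% and 76.5% at the weak end to between 0.671% and 2.09% at the strong end, and in Veh the C57Bl/6EiJ line lies above the Balb/cJ line throughout.

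Shared loci also kept their order between the strains. Over the 14578 shared Veh loci, Spearman's rank correlation of the counts was 0.84, and over the 28063 shared KLA loci it was 0.84, as a description of loci that share libraries and peak callers. The median difference in rank was 8.51 percentile points in Veh and 8.08 in KLA. A difference of over 30 points was found at 7.88% of shared Veh loci and at 7.31% of shared KLA loci.

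The shared loci with the largest differences in rank lay near genes of different kinds. An exonic locus of Ikbkb, which encodes a kinase that activates NF-κB (chr8:22693238-22693569), ranked at 92.4 in C57Bl/6EiJ Veh with a count of 150 and at 7.36 in Balb/cJ Veh with a count of 18. The same locus ranked at 95.4 and 49.8 in KLA. A locus 162 kb before the start of Igf1, a growth factor gene, ranked at 96.8 in C57Bl/6EiJ and 23.8 in Balb/cJ in Veh. In the other direction, a locus 18.9 kb before Ifi203, an interferon-inducible gene, ranked at 27.9 in C57Bl/6EiJ and at 95.1 in Balb/cJ in Veh. A locus 1.20 kb before Hal, the histidine ammonia-lyase gene, ranked at 22.4 and 93.9. In KLA the largest differences toward Balb/cJ were at loci near Tm7sf3, Sv2c and Musk, with ranks of 2.04, 9.44 and 10.9 in C57Bl/6EiJ and 94.6, 98.5 and 91.6 in Balb/cJ. Toward C57Bl/6EiJ they were at loci near Kank1, Chp1 and Cldn23, with ranks of 91.7, 90.1 and 94.7 in C57Bl/6EiJ and 3.39, 3.39 and 14.5 in Balb/cJ. The remaining loci of the Veh comparison lay near Slco3a1, at 93.2 in C57Bl/6EiJ and 18.2 in Balb/cJ, and near Eva1a, at 35.0 and 93.0.

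The 5 strongest strain-only loci of each list were of different kinds. In C57Bl/6EiJ Veh the strongest lay 0.655 kb before Stk40, a kinase gene (chr4:126103199-126103405), with a count of 371, in the top 1% of the list, and the nearest Balb/cJ peak lay 462 bp away. In KLA the same place had a peak in both strains, with a count of 377 in C57Bl/6EiJ and 298 in Balb/cJ (rank 99.9), and all 6 lists of Jun, JunD, Fos and JunB held a peak there in each strain. Its absence from the Balb/cJ Veh list therefore stood against peaks in every other list of that strain examined. A locus 22.0 kb before Serpina3c, a serine protease inhibitor gene, had counts of 258 in Veh and 300 in KLA in C57Bl/6EiJ, and 106 in Balb/cJ KLA alone. Loci at Coa4 and 135 kb before Thbs1, the thrombospondin gene, had no Balb/cJ peak of any of these antigens and counts of 203 and 194 in C57Bl/6EiJ Veh. The same holds for a locus 2.97 kb before Muc3, a mucin gene, with a count of 201 in Veh and 302 in KLA, but there C57Bl/6EiJ also had no peak of Jun, JunD, Fos or JunB.

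In Balb/cJ Veh the strongest strain-only locus lay in an intron of Nav1, a gene of the cytoskeleton (chr1:135594031-135594244), with a count of 244. In KLA this locus had a count of 431 in C57Bl/6EiJ and 325 in Balb/cJ, and again all 6 other AP-1 lists of both strains held a peak there. Intronic loci of Capzb, the actin capping protein β gene, had counts of 135 and 122 in Balb/cJ Veh and were shared in KLA. A locus in an intron of Dcakd, nearest to the start of Nmt1, was found only in Balb/cJ in Veh (count 141, rank 98.3) and only in C57Bl/6EiJ in KLA (count 331, rank 99.2). A Balb/cJ KLA peak lay 467 bp away, and most of the other AP-1 lists of both strains held a peak at that locus. Among these 5, a locus in an intron of Cacna1a, which encodes a neuronal calcium channel, had Balb/cJ peaks in both treatments (counts of 108 and 130), no C57Bl/6EiJ peak within 80821 bp in Veh, and peaks of all 6 other AP-1 lists in Balb/cJ and of none in C57Bl/6EiJ.

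In KLA, the strongest C57Bl/6EiJ-only locus lay 3.84 kb before Itga5, the integrin α5 gene, with a count of 471, and had peaks in both strains in Veh (273 and 191). A locus 32.1 kb after the start of Popdc2 had a count of 346 in C57Bl/6EiJ, and the nearest Balb/cJ peak, with a count of 258, began 20 bp beyond its end and was itself counted as Balb/cJ-only. A locus 5.19 kb before Slamf9, a SLAM family receptor gene, was found only in C57Bl/6EiJ in both treatments (173 and 321). Among the Balb/cJ-only KLA loci, an intronic locus of App had a count of 308, and loci near Il1a, the interleukin-1α gene, and Ccrl2, a chemokine receptor-like gene, had counts of 255 and 224. Each of these had a C57Bl/6EiJ peak in Veh, with counts of 158, 111 and 39. A locus 6.13 kb before Tbc1d7 had a Balb/cJ count of 241 and no C57Bl/6EiJ ATF3 peak in either treatment. In each strain all 6 other AP-1 lists held a peak at the App and Il1a loci, and 5 did at those of Ccrl2 and Itga5. The Slamf9 locus had 6 such lists in C57Bl/6EiJ and 0 in Balb/cJ, and the Tbc1d7 locus had 0 and 5. Gaps as short as that at Popdc2 were rare. A peak of the other strain lay within 100 bp at 1.59% of C57Bl/6EiJ-only and 1.59% of Balb/cJ-only loci in Veh, and at 2.23% and 2.85% in KLA. Within 1 kb one lay at 15.6% of C57Bl/6EiJ-only and 14.4% of Balb/cJ-only loci in Veh, and at 22.2% and 21.3% in KLA.

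Loci that kept their strain in both treatments were a small part of the strain-only loci. Of the 8554 C57Bl/6EiJ-only Veh loci, 1325 (15.5%) also had a KLA peak in C57Bl/6EiJ alone, and 891 of the 4919 Balb/cJ-only loci (18.1%) had a KLA peak in Balb/cJ alone. The 5 highest in C57Bl/6EiJ by the lower of the ranks in Veh and KLA lay near Muc3, Slamf9, Arntl, Tmem104 and Ncapg2. Arntl encodes the clock factor BMAL1, and the locus 122 kb before it had counts of 165 in Veh and 249 in KLA. The loci near Slamf9, Arntl and Tmem104 had peaks in all 6 other AP-1 lists of C57Bl/6EiJ and in none of Balb/cJ. The Ncapg2 locus had 6 and 2. The 5 highest in Balb/cJ lay near Cacna1a, Ndfip2, Rasal2, Pmch and Pik3r1. The Ndfip2 locus, in a gene for an adaptor of ubiquitin ligases, had counts of 91 and 117, and the loci near Cacna1a, Ndfip2 and Pmch had peaks in all 6 other AP-1 lists of Balb/cJ and in none of C57Bl/6EiJ. The Rasal2 locus had 6 and 1. The locus near Pik3r1 was a near miss, with a C57Bl/6EiJ ATF3 peak 28 bp away in Veh and 36 bp away in KLA.

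Some genes held ATF3 peaks of 1 strain only. Among 20432 protein-coding genes searched with 5 kb on each side, 13 had at least 2 Balb/cJ peaks in each treatment and no C57Bl/6EiJ peak in either, and 9 had the reverse. This search was chosen after the values had been seen. Colec12, a scavenger receptor of the collectin family, held 10 Balb/cJ peaks in Veh (counts of 15 to 73) and 12 in KLA (18 to 105), and none in C57Bl/6EiJ. Cntn4, a neuronal adhesion molecule, held 6 and 7 Balb/cJ peaks. Col6a6, a chain of collagen VI, held 3 and 5, with counts of 55 to 73 in Veh and up to 167 in KLA. The other Balb/cJ genes were Rcan2, Clip4, Astn2, Pls3, Lpin1, Taf1b, Mis12, Slc4a7, Diaph3 and Clic5, each with 2 peaks in Veh and 2 to 4 in KLA. In C57Bl/6EiJ, Plekhg1, which encodes a guanine nucleotide exchange factor, held 5 peaks in Veh (32 to 69) and 8 in KLA (55 to 103). Muc3 held 5 and 7, Tor1aip2 and Pgpep1 held 4 and 4, and of the Wnt receptor genes Lrp6 held 2 and 4 and Fzd7 held 2 and 2. Aunip, 1700022I11Rik and Tsnaxip1 made up the rest.

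The lists of the other AP-1 antigens, whose libraries were not used to pick these genes, were read at the same places. Over the 6 lists of Jun, JunD, Fos and JunB, Colec12 held 46 Balb/cJ peaks and 0 C57Bl/6EiJ peaks, Cntn4 held 30 and 0, and Col6a6 held 19 and 0. All 13 Balb/cJ genes had more peaks in Balb/cJ, and 11 had none in C57Bl/6EiJ. Whole lists were counted here, and those of JunD, Fos and JunB were longer in Balb/cJ. Among the 2945 genes with at least 2 Balb/cJ ATF3 peaks in each treatment, which include the 13, 73.1% had more of these peaks in Balb/cJ. In this set 0.815% had none in C57Bl/6EiJ. Over all 20432 genes searched, these shares were 40.7% and 50.2%. Lpin1, a regulator of lipid synthesis, had 9 in Balb/cJ and 5 in C57Bl/6EiJ. Of the 9 C57Bl/6EiJ genes, 8 had more peaks in C57Bl/6EiJ, among them Plekhg1 with 18 against 2, and Fzd7 had 5 in each strain. Muc3 had 7 against 0. Among the 3413 genes with at least 2 C57Bl/6EiJ ATF3 peaks in each treatment, 23.6% had more in C57Bl/6EiJ, against 12.1% of all genes searched.

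**Figure D2:**
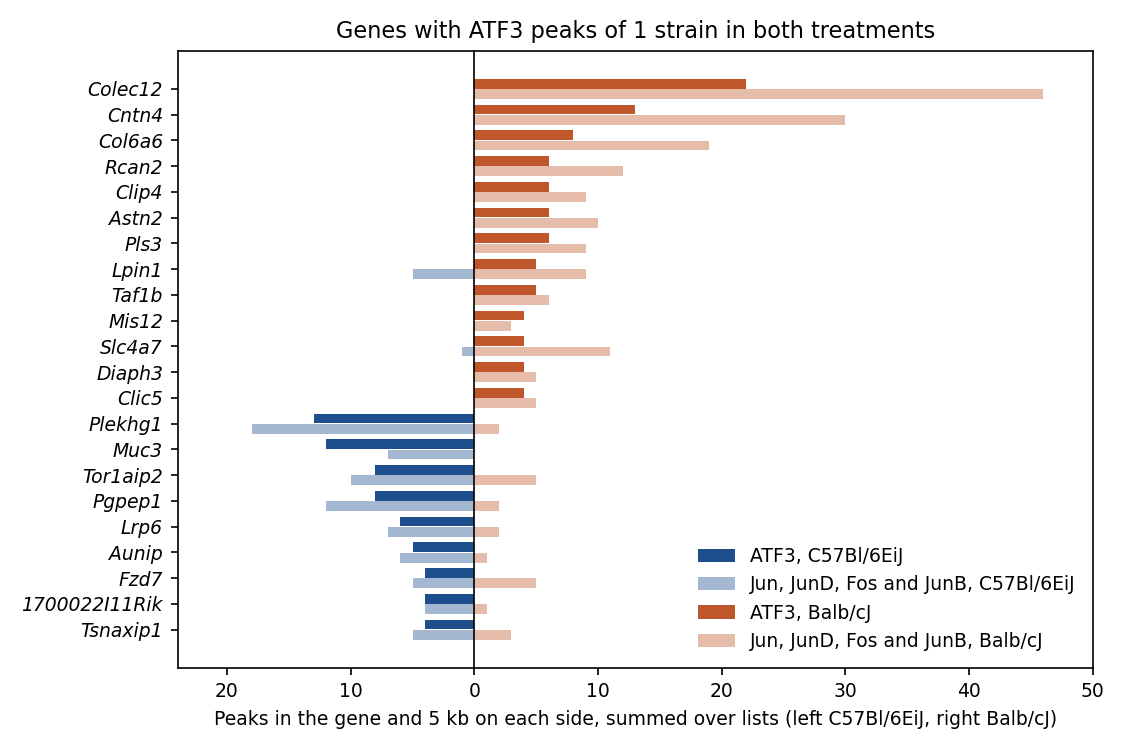
Peaks in each gene with 5 kb on each side, with C57Bl/6EiJ drawn to the left and Balb/cJ to the right. Dark bars sum the ATF3 lists of Veh and KLA, and pale bars sum the 6 lists of Jun, JunD, Fos and JunB. The pale bars point to the strain of the dark bar in all genes but Fzd7, with 5 peaks on each side.

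Some strain-only loci stood side by side along the chromosomes, and the longest of these runs are given here. In Veh 71 of 5865 C57Bl/6EiJ-only runs and 20 of 3774 Balb/cJ-only runs held 5 or more loci. The run lengths that a random order of loci would give were not computed. The longest unbroken run of Balb/cJ-only loci in Veh held 15 loci and spanned chr18:9552653-10178046, across Colec12, Cetn1 and Thoc1, with ranks from 1.01 to 84.9. In KLA the run there held 16 loci (chr18:9451362-9958209), with no C57Bl/6EiJ ATF3 peak in either treatment and with 59 Balb/cJ and 4 C57Bl/6EiJ peaks of the other AP-1 lists. A run of 11 Balb/cJ-only KLA loci (chr1:186182743-186676471) reached from the intergenic region beyond the end of Tgfb2, the transforming growth factor β2 gene, into that gene, and held 29 Balb/cJ peaks and 0 C57Bl/6EiJ peaks of the other lists. In Cntn4, 5 of the 6 Veh loci lay between chr6:106431403 and chr6:106446207, with counts of 29 to 47, and all 5 were Balb/cJ-only in KLA too.

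The longest C57Bl/6EiJ-only run in Veh held 10 loci (chr8:34965631-35393813), from the start of Tnks, a poly-ADP-ribose polymerase of Wnt signalling, to Ppp1r3b, a regulator of glycogen synthesis. It held 41 C57Bl/6EiJ and 14 Balb/cJ peaks of the other AP-1 lists. In the window from 35000001 to 36000000 of chromosome 8, 14 of 31 Veh loci were C57Bl/6EiJ-only in both treatments (45.2%). This window was picked as the highest of 1087 windows of 1 Mb with at least 10 loci, whose median was 3.85%. A run of 8 KLA loci (chr1:120305886-120532855) flanked Marco, a macrophage scavenger receptor, and held 17 C57Bl/6EiJ peaks and 0 Balb/cJ peaks of the other lists. A run of 10 KLA loci in and near Plekhg1 (chr10:3573066-3967510) held 23 and 2. The other lists did not follow every run. The second longest C57Bl/6EiJ-only Veh run, of 9 loci around Ctcf and Ripor1 (chr8:105543927-105827329), held 25 C57Bl/6EiJ and 34 Balb/cJ peaks of the other antigens, and 8 Balb/cJ ATF3 peaks in KLA. Balb/cJ-only Veh runs of 7 loci (chr3:54709068-55353486) and 6 loci (chr11:80533104-81997387) held 32 and 26 Balb/cJ peaks of the other antigens. They also held 12 and 18 C57Bl/6EiJ peaks of these antigens, and 6 and 7 C57Bl/6EiJ ATF3 peaks in KLA.

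Over the whole genome the class of a locus was compared with that of its neighbour. Within 10 kb of a Balb/cJ-only Veh locus the next locus was Balb/cJ-only in 20.8% of cases, against 13.1% after any other locus. For C57Bl/6EiJ these shares were 31.4% and 30.0%, with intervals that overlapped, so no grouping was shown. In KLA they were 21.9% and 14.8% for Balb/cJ. For C57Bl/6EiJ in KLA, 1080 of 4689 loci after a C57Bl/6EiJ-only locus were again C57Bl/6EiJ-only, against 17.4% after other loci. For loci Balb/cJ-only in both treatments they were 9.93% and 1.83%, and for loci C57Bl/6EiJ-only in both they were 9.06% and 4.23%. Beyond 100 kb the shares were 28.9% and 26.0% for Balb/cJ-only Veh loci. They were 9.67% and 6.73% for loci Balb/cJ-only in both treatments and 6.45% and 4.37% for loci C57Bl/6EiJ-only in both. Intervals overlapped in each case. The share after a Balb/cJ-only Veh locus was thus not highest at close range. Over all Veh loci 17.5% were Balb/cJ-only, 3.18% were so in both treatments, and 4.72% were C57Bl/6EiJ-only in both. The share of strain-only loci varied between chromosomes. In Veh the C57Bl/6EiJ-only share of autosomes lay between 27.1% (24.6 to 29.9%) on chromosome 16 and 33.6% (31.1 to 36.1%) on chromosome 8. The Balb/cJ-only share lay between 15.6% (13.7 to 17.6%) on chromosome 8 and 21.0% (18.7 to 23.5%) on chromosome 14. On chromosome X these shares were 27.8% and 23.7%.

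A second ATF3 Veh list on the C57Bl6 background came from TGEMs with the genotype PPARgKO and was not used to define the classes. It held 28318 peaks. It is not a replicate, because PPARg, a nuclear receptor, was knocked out, and it was added after the values had been seen. A peak of this list was present at 86.9% of shared Veh loci, 63.7% of C57Bl/6EiJ-only loci (62.7 to 64.7%) and 42.1% of Balb/cJ-only loci (40.7 to 43.5%). Over all loci it was 72.0%. With the list held to its strongest 19506 peaks these shares were 82.9%, 48.7% and 25.1%. Of the C57Bl/6EiJ-only loci in the upper 50% of their list, 86.5% had such a peak, against 94.5% of shared loci in that range. In the lower 50% the shares were 58.0% and 71.6%. Balb/cJ-only loci of the upper 50% had one at 55.2%.

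Held to 19506 peaks, the length of the Balb/cJ list, the second C57Bl6 list had a peak at 70.3% of the loci of the whole C57Bl/6EiJ Veh list. The Balb/cJ list held one at 63.0% of them. The PPARgKO list, so held, also had a peak at 68.3% of the loci of the Balb/cJ Veh list. The 14578 shared loci belong to both of these sets. In the parts that differ, the shares were 48.7% of C57Bl/6EiJ-only and 25.1% of Balb/cJ-only loci. For loci Balb/cJ-only in both treatments, a peak in the whole PPARgKO list was found at 33.3%, and for loci C57Bl/6EiJ-only in both at 63.5%. At named loci, the PPARgKO list held a peak at Nav1 and Nmt1 (rank 98.5 at Nmt1) and at 1 of the Capzb loci (97.4), where the C57Bl/6EiJ Veh list had none, and at Stk40. It held peaks at Slamf9, Arntl, Tmem104 and Ncapg2, with ranks of 93.9 to 96.3, and at Rasal2 with a rank of 15.4, and none at Cacna1a, Ndfip2, Pmch, Pik3r1 or the repeat-like Muc3 locus. All 9 C57Bl/6EiJ genes held PPARgKO peaks, and 5 of the 13 Balb/cJ genes did, among them Cntn4 with 3 and Lpin1 with 3. Colec12 and Col6a6 had none, and the Balb/cJ-only KLA runs at Tgfb2 and Colec12 held 2 and 1 PPARgKO peaks. Such a peak was held by 44.9% of all genes searched, by 98.5% of the genes with at least 2 C57Bl/6EiJ peaks in each treatment and by 98.3% of those with at least 2 Balb/cJ peaks, so all 9 of the C57Bl/6EiJ genes were near that background.

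Jun, JunD, Fos and JunB followed the strain of ATF3 at part of the loci. With the 2 lists of each antigen set to equal length, a JunD Veh peak in C57Bl/6EiJ alone was found at 23.7% of C57Bl/6EiJ-only Veh loci and one in Balb/cJ alone at 9.24%. At Balb/cJ-only loci these shares were 6.18% and 26.1%. Over all Veh loci they were 12.3% and 13.2%. Jun in Veh gave 16.0% and 7.83% at C57Bl/6EiJ-only loci and 4.07% and 14.8% at Balb/cJ-only loci, against 13.2% and 12.2% of all loci. JunD in KLA gave 28.9% and 8.81% at C57Bl/6EiJ-only KLA loci, and 8.04% and 26.5% at Balb/cJ-only loci, against 15.2% and 11.5% of all KLA loci. Fos in KLA gave 19.5% and 5.48%, and 6.70% and 13.2%, against 9.01% and 10.8% of all loci. Jun and JunB in KLA followed ATF3 in 1 strain each. Jun gave 4.02% and 3.45% at C57Bl/6EiJ-only loci, with intervals that overlapped, and 0.768% and 7.25% at Balb/cJ-only loci. JunB gave 8.79% and 2.16% at C57Bl/6EiJ-only loci, and 3.09% and 3.74% at Balb/cJ-only loci, with intervals that overlapped. Over all KLA loci the shares were 10.1% and 9.66% for Jun and 9.09% and 9.58% for JunB, so each of the shares at strain-only ATF3 loci was below that of all loci, with overlapping intervals for JunB peaks of C57Bl/6EiJ at C57Bl/6EiJ-only loci. With whole lists the direction turned at C57Bl/6EiJ-only KLA loci for Fos (12.2% and 25.6%) and JunB (7.41% and 11.9%), where the Balb/cJ lists held 40459 and 21667 peaks and the C57Bl/6EiJ lists 24364 and 13375. Many strain-only loci had no peak in the other lists. At equal lengths JunD was found in neither strain at 40.1% of C57Bl/6EiJ-only and 55.2% of Balb/cJ-only Veh loci, against 13.0% of shared loci.

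**Figure D3:**
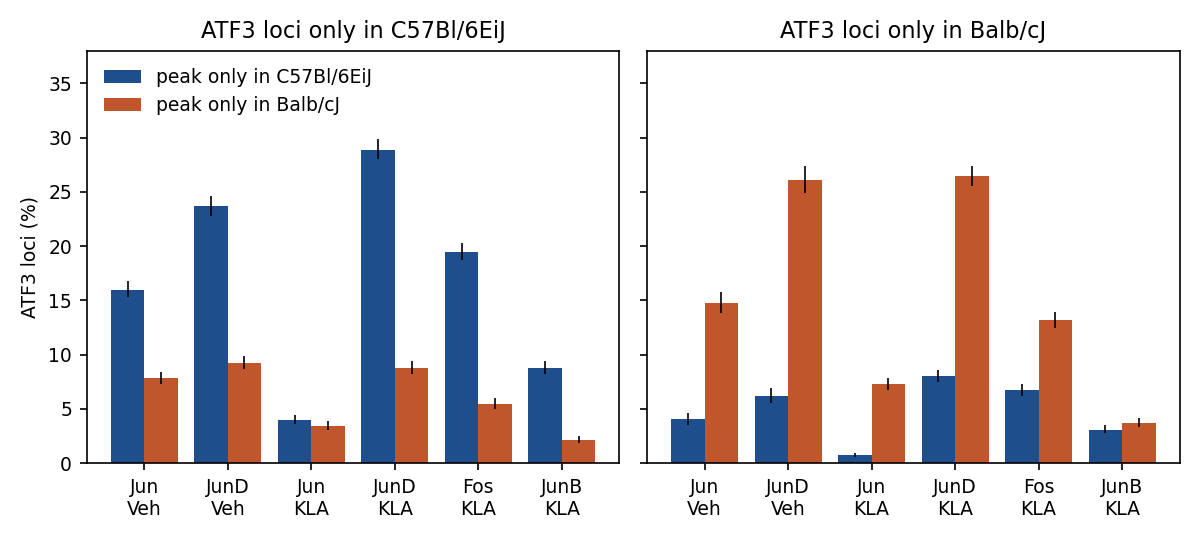
Percent of strain-only ATF3 loci of the same treatment at which another AP-1 antigen had a peak in C57Bl/6EiJ alone (blue) or in Balb/cJ alone (orange), with lists of equal length and 95% Wilson intervals. The taller bar is that of the ATF3 strain in all 12 pairs, with intervals that overlap for Jun in KLA on the left and JunB on the right.

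For loci that were strain-only in both treatments, the whole lists were counted. More of the 6 lists held a peak in C57Bl/6EiJ than in Balb/cJ at 55.2% of the C57Bl/6EiJ loci and fewer at 21.2%. At the Balb/cJ loci more lists held a peak in Balb/cJ at 74.5% and fewer at 4.94%. Over all Veh loci C57Bl/6EiJ had more lists at 27.6% and Balb/cJ at 36.2%, and the Balb/cJ lists of JunD, Fos and JunB were the longer ones. Peaks in 2 or more lists of the same strain and none of the other were found at 294 C57Bl/6EiJ loci (22.2%) and 355 Balb/cJ loci (39.8%), against 2.14% and 5.36% of all Veh loci.

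Lists of PU.1, CEBPα and PPARγ, which are factors of macrophage identity and lipid metabolism, were read in C57Bl/6EiJ only. In Veh PU.1 was found at 61.5% of shared, 49.7% of C57Bl/6EiJ-only and 40.4% of Balb/cJ-only loci. CEBPα was found at 45.8%, 23.5% and 15.7%, and PPARγ at 67.2%, 49.3% and 33.8%. Over all Veh loci the shares were 54.2% for PU.1, 33.7% for CEBPα and 55.9% for PPARγ. In KLA CEBPα was found at 36.4%, 16.6% and 8.07%, against 27.2% of all loci. Strain-only loci ranked lower than shared loci, and the part of rank in these shares was not tested.

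Loci of Veh were then followed into KLA. Of the C57Bl/6EiJ-only Veh loci, 51.6% (50.6 to 52.7%) had KLA peaks in both strains, and of the Balb/cJ-only Veh loci 38.7% (37.3 to 40.1%) did. For shared Veh loci this share was 84.6%, while 5.09% of them had a KLA peak in C57Bl/6EiJ alone and 4.92% in Balb/cJ alone. No KLA peak was found in either strain at 23.4% of C57Bl/6EiJ-only and 32.0% of Balb/cJ-only loci. The KLA lists were longer than the Veh lists in both strains, and the part of list length in these shares was not tested.

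Where the KLA peak was again in 1 strain, it was not always the same strain. Among such loci, 62.1% of the C57Bl/6EiJ-only and 61.8% of the Balb/cJ-only Veh loci kept their strain, while 810 and 551 loci had their KLA peak in the other strain alone. The rate moved with rank. In C57Bl/6EiJ it was 57.9% in the lower 50% of the list, 82.5% from there to the top 10%, and 21 of 21 loci in the top 10%. In Balb/cJ it was 58.8%, 79.8% and 2 of 4. Read backwards, 69.8% of C57Bl/6EiJ-only and 72.3% of Balb/cJ-only KLA loci had no Veh peak in either strain, against 33.4% of shared KLA loci. Of those with a Veh peak in 1 strain, 70.6% of the C57Bl/6EiJ-only loci and 52.5% of the Balb/cJ-only loci had it in the same strain, where the C57Bl/6EiJ Veh list was the longer one.

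**Figure D4:**
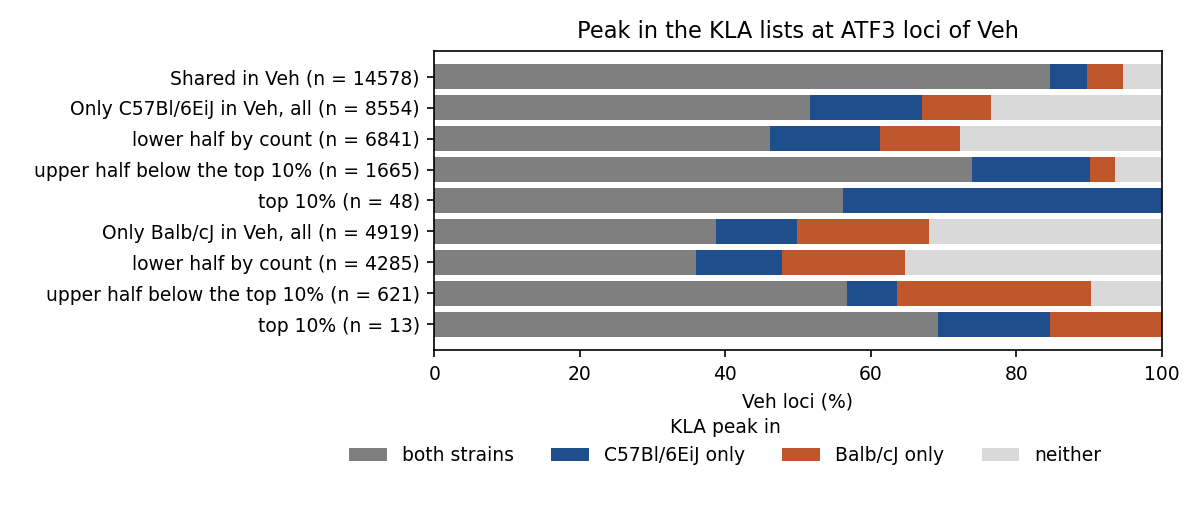
Veh loci, in percent of each row, by the strains with a KLA peak at the same place. Grey is both strains, blue C57Bl/6EiJ alone, orange Balb/cJ alone and pale grey neither. The pale part shrinks from the lower 50% to the top 10% of the Veh list, where all 48 C57Bl/6EiJ loci and all 13 Balb/cJ loci had a KLA peak.

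Motifs were searched as exact letters on both strands in the central 200 bp of each locus and in all 200 bp windows of the reference. The motifs were TRE (TGACTCA), CRE (TGACGTCA), an ATF-CEBP composite (TGATGCAA), CEBP (TTGCNNAA), PU.1 (GAGGAAGT), NF-κB (GGG and TTTCC with any 2 bases between), IRF (GAAA repeated with any 2 bases between) and the GC-rich Sp motif (GGGCGGG), and a window could hold several. A TRE was present in 32.0% of shared Veh loci, 22.1% of C57Bl/6EiJ-only loci and 21.1% of Balb/cJ-only loci, against 3.10% of genome windows. In KLA these shares were 33.4%, 25.3% and 22.3%. Within the lower 50% of each list the difference between shared and strain-only loci was smaller, at 23.5% and 20.6% in C57Bl/6EiJ Veh and 25.2% and 19.7% in Balb/cJ Veh. The NF-κB motif was more frequent in KLA than in Veh loci in every class, at 3.18% of shared KLA and 1.15% of shared Veh loci.

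The strain-only loci of KLA differed from each other. Balb/cJ-only KLA loci had a CRE in 2.66% (2.34 to 3.02%), C57Bl/6EiJ-only loci in 0.994% (0.806 to 1.23%) and shared loci in 1.99%. The Sp motif was found in 956 of the 8726 Balb/cJ-only loci, and in 4.22% and 5.42% of the other classes. Balb/cJ-only KLA loci also lay within 1 kb of a transcription start site (TSS) more often, at 31.7% (30.7 to 32.6%), against 17.7% for C57Bl/6EiJ-only and 19.8% for shared loci. At least 1 kb from every TSS the CRE shares were 1.58%, 0.660% and 1.09%, and the Sp shares fell to 3.17%, 1.91% and 2.57%. In Veh the order of the strains was not the same. The CRE was present in 1.94% of C57Bl/6EiJ-only and 1.83% of Balb/cJ-only loci, TSS loci made up 25.1% and 24.3%, and the Sp motif was found in 9.19% and 5.67%.

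**Figure D5:**
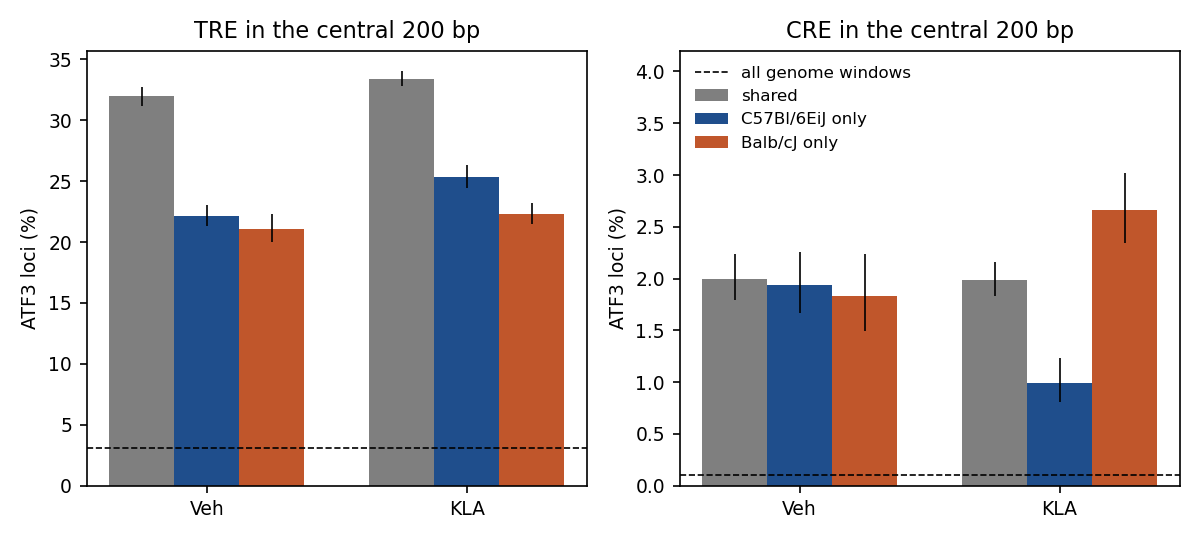
Percent of ATF3 loci with a TRE (left) or a CRE (right) in the central 200 bp, by class and treatment, with 95% Wilson intervals. The dashed line is the share of all genome windows, 3.10% for TRE and 0.105% for CRE. The CRE bars differ between the strain-only classes in KLA (0.994% and 2.66%) but not beyond their intervals in Veh.

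Gene lists of macrophage biology were searched with 5 kb on each side of each gene. The shares of all loci to set beside them were 52.0% shared, 30.5% C57Bl/6EiJ-only and 17.5% Balb/cJ-only in Veh and 61.8%, 19.0% and 19.2% in KLA. Among genes for cytokines and chemokines induced through TLR4, 19 of 23 had a Veh locus, and 30 of the 51 Veh loci were shared (58.8%), with 11 in C57Bl/6EiJ alone and 10 in Balb/cJ alone. In KLA all 23 had a locus and 71 of 102 were shared (69.6%). Il1b, the interleukin-1β gene, had 3 shared loci in Veh and 5 in KLA and none that were strain-only. A locus 1.98 kb after the start of Tnf was Balb/cJ-only in both treatments, with counts of 22 and 33, both in the lower 50% of the list. A C57Bl/6EiJ ATF3 peak lay 309 bp away in Veh. Il12b and Il23a, which encode subunits of interleukins 12 and 23, each had a locus that was C57Bl/6EiJ-only in both treatments. That of Il23a lay nearer to the start of Pan2, had a KLA rank of 91.4, and had a Balb/cJ peak 29 bp away in KLA. At the loci of Tnf, Il12b and Il23a the other AP-1 antigens had a peak in 1 list of C57Bl/6EiJ and 2 of Balb/cJ.

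Among subunits and feedback regulators of NF-κB, 43 of 82 Veh loci (52.4%) and 114 of 157 KLA loci (72.6%) were shared. C57Bl/6EiJ-only loci of both treatments lay at Tnip3 and Zc3h12a, which both restrain inflammatory signalling, with counts of 38 to 73. The other AP-1 lists did not follow at these loci, with 2 lists in C57Bl/6EiJ and 3 in Balb/cJ at 1 Tnip3 locus, 0 in both at the other, and 1 and 3 at Zc3h12a. Among bZIP transcription factor genes, 34 of 64 Veh loci (53.1%) and 60 of 92 KLA loci (65.2%) were shared. Atf3 itself had 6 shared loci and 1 C57Bl/6EiJ-only locus in Veh, and 8 shared loci and 1 Balb/cJ-only locus in KLA. Junb, Fos and Nfe2l2 each had a locus that was Balb/cJ-only in both treatments. The Junb locus, 3.59 kb before the start, had counts of 21 in Veh and 83 in KLA and peaks in all 6 other AP-1 lists of Balb/cJ against 1 of C57Bl/6EiJ. The Fos locus, 0.190 kb before the start, had counts of 26 and 24. The Nfe2l2 locus was a near miss in KLA, with a C57Bl/6EiJ ATF3 peak 27 bp away. Its Veh count was 16 (rank 2.60), and 1 other AP-1 list of Balb/cJ held a peak there.

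At macrophage receptor and lineage genes, 62 of 102 Veh loci (60.8%) and 110 of 150 KLA loci (73.3%) were shared. A locus in Csf1r, the receptor for the macrophage growth factor CSF1, was C57Bl/6EiJ-only in both treatments with counts of 46 and 93, and had 5 other AP-1 lists in C57Bl/6EiJ and 0 in Balb/cJ. Mrc1, the mannose receptor, and Siglec1 each had 1 locus that was C57Bl/6EiJ-only in both treatments. That of Siglec1 lay nearer to the start of Adam33. Both loci had 2 other AP-1 lists in C57Bl/6EiJ, against 0 in Balb/cJ at Mrc1 and 1 at Siglec1. At MHC and antigen presentation genes, 16 of 30 Veh loci (53.3%) and 26 of 49 KLA loci (53.1%) were shared. A locus in an intron of H2-DMb2 lay 2.87 kb before H2-DMb1, whose product helps load peptides on MHC class II. It was Balb/cJ-only with counts of 50 and 115 and had 5 other AP-1 lists in Balb/cJ and 1 in C57Bl/6EiJ. How reads that match both genes were placed was not tested. A weak locus at the start of Psmb8, within 5 kb of Tap1, was C57Bl/6EiJ-only, with counts of 30 and 38.

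Among interferon response and inflammasome genes, 33 of 34 matched the annotation, and 28 of 53 Veh loci (52.8%) and 76 of 110 KLA loci (69.1%) were shared. A locus 0.144 kb before Nlrp1b, an inflammasome sensor, was C57Bl/6EiJ-only in both treatments with counts of 56 and 119 and had all 6 other AP-1 lists in C57Bl/6EiJ and none in Balb/cJ. The nearest Balb/cJ ATF3 peak lay 70962 bp away in Veh. Nlrp1b has close paralogs beside it, and how reads that match several of them were placed was not tested. Ifi204 had a C57Bl/6EiJ-only locus and Rsad2 and Ifi44 had Balb/cJ-only loci, with counts of 18 to 44.

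Among lipid and cholesterol genes, 43 of 79 Veh loci (54.4%) and 83 of 120 KLA loci (69.2%) were shared. Cd36, a receptor for oxidised lipids, and Lipa, the lysosomal acid lipase, had C57Bl/6EiJ-only loci, and Scd2 had a Balb/cJ-only locus. The other AP-1 lists with a peak numbered 3 in C57Bl/6EiJ and 2 in Balb/cJ at Cd36 and at Lipa, and 3 and 1 at Scd2. Iron, heme and oxidative stress genes had 15 of 29 Veh loci (51.7%) and 23 of 43 KLA loci (53.5%) shared, with Balb/cJ-only loci of both treatments at Fth1, the ferritin heavy chain, and Slc11a1, a metal transporter of phagosomes. Markers of other peritoneal or blood cells had fewer loci. Of these 23 genes 10 had a Veh locus, against 23 of the 27 macrophage genes, and 7 of 15 Veh loci and 11 of 26 KLA loci were shared. Mpo, a marker of neutrophils and their precursors, had a Balb/cJ-only locus with counts of 38 and 64. It had 5 other AP-1 lists in Balb/cJ and 0 in C57Bl/6EiJ. Klrb1c, Ms4a1 and Cd3g, which mark NK, B and T cells, had C57Bl/6EiJ-only loci, that of Cd3g at the start of Ube4a. Their other AP-1 lists numbered 4, 1 and 3 in C57Bl/6EiJ and 0, 1 and 3 in Balb/cJ. The share of such cells in each preparation was not tested.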

How the data were processed

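ChIP-seq was done with an ATF3 antibody on TGEMs of male mice, double crosslinked. Reads were aligned by the authors (Bowtie2) to mm10 or, for Balb/cJ, to a custom genome with positions then shifted to mm10. Reads that fell in sequence deleted in Balb/cJ were not analysed by the authors. HOMER peaks were called over the input of that treatment, and the authors filtered them by IDR over replicate experiments, so each condition has 1 deposited list. The count deposited with each peak is a whole number, not scaled to library size, and how counts of replicates were combined is not stated in the sources used here. The score deposited by the authors is the scaled IDR (540 to 1000, at 1000 for 59.0 to 68.4% of peaks). Sequencing depth per library was not analysed here, so the sums of counts in the lists are the only measure of depth used. Coordinates are as the lists give them.

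Values were computed in Python 3.11.15 with pandas 2.3.3, scipy 1.17.1 and matplotlib 3.10.9. Genes and TSSs were those of GENCODE for GRCm38, and no peak passed a chromosome end of that assembly. The nearest gene was the protein-coding gene with the nearest TSS. Overlap calls were checked on simulated lists. Named loci followed a rule: for each treatment and strain the 5 strain-only loci with the highest count, for each strain the 5 loci strain-only in both treatments with the best lower rank, for each treatment the 3 shared loci with the largest rank difference each way among the top 10% of either list, and the genes of each gene list with a locus strain-only in both treatments. The 22 one-strain genes and the runs, and the use of the PPARgKO list, were chosen after the values were seen. The members and lists were chosen with earlier results of these data known. Alternatives were a scaled score for an IDR of 0.01 or lower, the strongest 50% of each list, equal lengths, centres within 100 bp, 50% reciprocal overlap, and loci at least 1 kb from every TSS. Lists of Fos and JunB in Veh, of Fra2, and of the input were not used. Among the genes so named, 1 is not reported here.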

Additional observations from a re-analysis of the deposited data

Results flagged for a closer look

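ATF3 loci were flagged where the strain of the peak changed between treatments. At 810 loci the Veh peak was found only in C57Bl/6EiJ and the KLA peak only in Balb/cJ, and at 551 loci the Veh peak was found only in Balb/cJ and the KLA peak only in C57Bl/6EiJ. The difference between the strains at these loci was not tested, since each strain had 1 list per treatment. Of the 810 loci, 753 lay in the lower 50% of the C57Bl/6EiJ Veh list, and of the 551 loci, 507 lay in the lower 50% of the Balb/cJ Veh list. Of all C57Bl/6EiJ-only Veh loci 6841 of 8554 lay in that range, and of all Balb/cJ-only Veh loci 4285 of 4919 (87.1%). The 810 were 9.47% of the C57Bl/6EiJ-only Veh loci, and the 551 were 11.2% of the Balb/cJ-only ones. Among shared Veh loci, a KLA peak in Balb/cJ alone was found at 4.92% and in C57Bl/6EiJ alone at 5.09%. The strong locus in an intron of Dcakd, nearest to Nmt1, was among the 551. The PPARgKO list on the C57Bl6 background held a Veh peak there with a rank of 98.5. The nearest Balb/cJ KLA peak lay 467 bp away. Of the 6 other AP-1 lists, 5 in C57Bl/6EiJ and all 6 in Balb/cJ held a peak at this locus.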

How the results depend on the processing

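No paired analysis was possible because each strain and treatment has 1 list of combined replicates. Over 54 values under alternatives, 36 stayed within 1.5 times the reported count or, for the shares of Veh loci that were shared in KLA, within its interval. With the strongest 50% of each list, Veh gave 8163 shared, 3410 C57Bl/6EiJ-only and 1588 Balb/cJ-only loci, KLA gave 14897, 3468 and 3508, and the share of Balb/cJ-only Veh loci that were shared in KLA was 43.1%. That alternative keeps fewer peaks by construction. With the stricter IDR score, C57Bl/6EiJ-only Veh loci numbered 5071 and Balb/cJ-only KLA loci 5695, and 55.6% of C57Bl/6EiJ-only and 43.3% of Balb/cJ-only Veh loci were shared in KLA. These 2 shares were 59.0% and 40.7% at equal lengths, 48.2% and 34.8% with centres within 100 bp, and 48.9% and 35.4% with 50% reciprocal overlap. For C57Bl/6EiJ it was 53.2% at least 1 kb from every TSS. The C57Bl/6EiJ share was the higher one under each alternative run. Leaving out strain-only loci with a peak of the other strain within 1 kb, an alternative chosen after seeing the data, kept 7219 C57Bl/6EiJ-only and 4209 Balb/cJ-only Veh loci.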
